A study of Homo sapiens with 32 samples.

Results

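The 10 genes described here handle retinoic acid or answer to it. CYP26A1 and CYP26B1 encode enzymes that oxidise and so clear it, ALDH1A1 and ALDH1A3 make it from retinal, DHRS3 turns retinal back to retinol, RBP4 and TTR carry retinol in plasma, and RARA, RARB and RARG are its nuclear receptors. They were chosen by gene symbol, and each was read by its brightest probe set, judged by mean log2 across the 32 arrays. All 10 were on the array and passed the filter on low values, of 19775 genes measured and 14695 tested, and they were covered by 23 probe sets. Because the level itself picked the probe set, levels are given as a description. The genes were also chosen with results of these arrays known, so the A549 p-values below describe the fit over all genes and are not independent evidence that these genes stand apart.

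Retinol taken up from plasma is oxidised to retinal by retinol dehydrogenases and then, irreversibly, to retinoic acid by the ALDH1A enzymes. Retinoic acid binds a receptor of the RAR family, paired with an RXR, on DNA elements made of repeated half-sites. Transcription of CYP26A1, CYP26B1, RARB and DHRS3 is known to rise with retinoic acid in many cell types, which makes them both parts and readouts of the pathway. RBP4 and TTR are best known as products of hepatocytes.

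The study measured RNA in 2 human lung cancer lines, A549 and H1299, both known to have lost the SWI/SNF ATPase SMARCA4. All lines carried either S2sh7, a short hairpin RNA (shRNA) against SMARCA2, or shLuc, an shRNA against luciferase. They also expressed GFP or a cDNA, SMARCA4 in A549 and SMARCA2 in H1299, that was wild type (WT), mutated in the bromodomain (BRD) or inactive as an ATPase (ATPdead). The 8 A549 groups were S2sh7 with WT, BRD, ATPdead or GFP and shLuc with the same 4, with 1 array each, and the 8 H1299 groups were the same combinations with 3 arrays each. Cells were stable lines, described as untreated, and grown in RPMI with 10% fetal bovine serum, and 1 SMARCA2 shRNA was used, so that loss of SMARCA2 and other effects of that shRNA cannot be told apart. The labels call the H1299 replicates biological without saying whether they were separate cultures, so p-values measure the spread between these arrays.

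The targeted and added genes were checked first. SMARCA2, in its brightest probe set, read log2 5.13 to 5.63 on the 4 S2sh7 arrays of A549, against 8.31 to 8.63 on the 4 shLuc arrays, and log2 4.81 to 5.39 on the 12 S2sh7 arrays of H1299, against 6.18 to 6.55 on the 12 shLuc arrays. That probe set did not show the SMARCA2 cDNA in H1299. Another probe set of SMARCA2 did, at means of log2 6.25, 6.06 and 5.82 with S2sh7 and WT, BRD and ATPdead, against 4.64 with GFP, and at 6.91, 6.75 and 6.77 with shLuc, against 5.41 with GFP (n = 3 each). A SMARCA4 probe set that reads the cDNA stood at log2 7.88, 7.91 and 7.24 in A549 with S2sh7 and WT, BRD and ATPdead, and at 4.97 with S2sh7 and GFP, while with shLuc it read 6.64, 6.91 and 6.85 against 4.56 with GFP. In H1299 with GFP, SMARCA4 RNA also read lower with S2sh7 in its brightest probe set (-0.60, limma adjusted p = 1.22e-06). Of its other tested probe sets, those at -0.68, -0.38 and -0.29 were called and those at -0.06, -0.003 and 0.04 were not. The part of this in the H1299 results was not tested. Replicate arrays of H1299 correlated at 0.99756 to 0.998844. Array medians were 40.1 to 41.2 in A549 and 26.4 to 27.3 in H1299, in linear intensity, so the lines were treated as normalized apart. The labels put each line in its own batch, so line and batch cannot be told apart and no test was made between lines. The number of arrays limits the precision.

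Promoter sequence is shown for 3 genes, because retinoic acid acts on CYP26A1 and RARB through elements near their start sites and because CYP26B1 gives a contrast. Sequences are RefSeq's, build GRCh38.p14, from 250 bases before to 50 bases after the start of transcription. The search was for the receptor half-site AGGTCA, for the related form AGTTCA, and for the same pair beginning with another base, GGGTCA and, likewise related, GGTTCA, on both strands, and for a direct repeat of 2 half-sites with 5 bases between them, called DR5. Capitals mark half-sites.
CYP26A1, chr10:93073643-93073942, plus strand: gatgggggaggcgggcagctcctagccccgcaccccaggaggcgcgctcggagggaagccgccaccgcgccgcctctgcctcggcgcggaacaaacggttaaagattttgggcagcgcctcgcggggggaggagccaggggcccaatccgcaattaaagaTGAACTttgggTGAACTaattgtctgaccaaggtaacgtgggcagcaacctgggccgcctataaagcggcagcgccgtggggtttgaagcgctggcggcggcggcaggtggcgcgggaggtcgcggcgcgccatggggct
RARB, chr3:25428013-25428312, plus strand: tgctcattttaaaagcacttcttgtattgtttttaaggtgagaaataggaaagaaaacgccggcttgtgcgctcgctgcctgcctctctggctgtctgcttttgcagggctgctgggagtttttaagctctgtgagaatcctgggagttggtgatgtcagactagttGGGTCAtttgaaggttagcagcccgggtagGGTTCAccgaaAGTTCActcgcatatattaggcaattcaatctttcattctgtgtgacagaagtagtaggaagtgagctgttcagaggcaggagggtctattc
CYP26B1, chr2:72147813-72148112, minus strand: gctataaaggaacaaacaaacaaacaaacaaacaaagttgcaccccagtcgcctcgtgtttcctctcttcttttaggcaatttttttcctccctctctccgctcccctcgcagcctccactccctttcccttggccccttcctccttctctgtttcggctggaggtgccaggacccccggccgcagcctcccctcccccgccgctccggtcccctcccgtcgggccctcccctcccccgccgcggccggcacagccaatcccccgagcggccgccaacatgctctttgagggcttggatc

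The CYP26A1 window holds the repeat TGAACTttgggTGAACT, read from the opposite strand, with its half-sites 90 and 79 bases before the start. The RARB window holds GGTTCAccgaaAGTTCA, with half-sites 53 and 42 bases before the start, and a lone GGGTCA further out. No half-site was found in the CYP26B1 window, which says only that these letters are absent from these 300 bases. Of the 9 genes with a promoter in the table, 4 had a half-site in at least 1 window (CYP26A1, RARA, RARB and DHRS3) and the DR5 was found for CYP26A1 and RARB. A half-site is common, present in 38.6% of all 35116 promoter windows, whereas a DR5 was present in 31 windows (0.0883%). These shares are per window. Some of the 9 genes had more than 1 window, so their counts are not in the same unit. These matches describe sequence and are not evidence of binding in these cells.

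The 10 genes differed in where they could be measured at all. In A549 all 10 read over log2 5, the limit used for a measurable level, on 8 of 8 arrays. That limit lay under the median of all probe sets on the A549 arrays (log2 5.32 to 5.36). It lay over that median on the H1299 arrays (4.72 to 4.77), so it is not equally strict in the 2 lines. In A549 the leukocyte gene CD3E read 5.91 to 6.24 and the endothelial gene PECAM1 6.25 to 6.56. Whether each of the 10 genes was above background there was not tested. In H1299 TTR, RARA, RARG and DHRS3 read over it on 24 of 24 arrays, whereas CYP26A1, CYP26B1, RBP4, RARB, ALDH1A1 and ALDH1A3 read over it on 0 of 24. ALDH1A1, a retinal dehydrogenase abundant in A549, spanned log2 13.58 to 13.91 over the A549 arrays, with a median above 99.9% of probe sets there, and 2.39 to 2.86 over the H1299 arrays. The other genes under the limit in H1299 averaged log2 8.75 (RBP4), 8.64 (RARB), 8.17 (CYP26B1), 7.48 (ALDH1A3) and 6.66 (CYP26A1) in A549, and no size is given for their difference between the lines. For the 4 genes measurable in both, the mean in A549 minus that in H1299 was 3.14 log2 for DHRS3, 1.34 for TTR, 0.72 for RARA and 0.29 for RARG. After all 32 arrays were quantile normalized together it was 2.74, 0.78, 0.18 and -0.25 in the same order, so RARG has no settled order between the lines, and the sizes for TTR and RARA depend on the scaling.

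**Figure D1:**
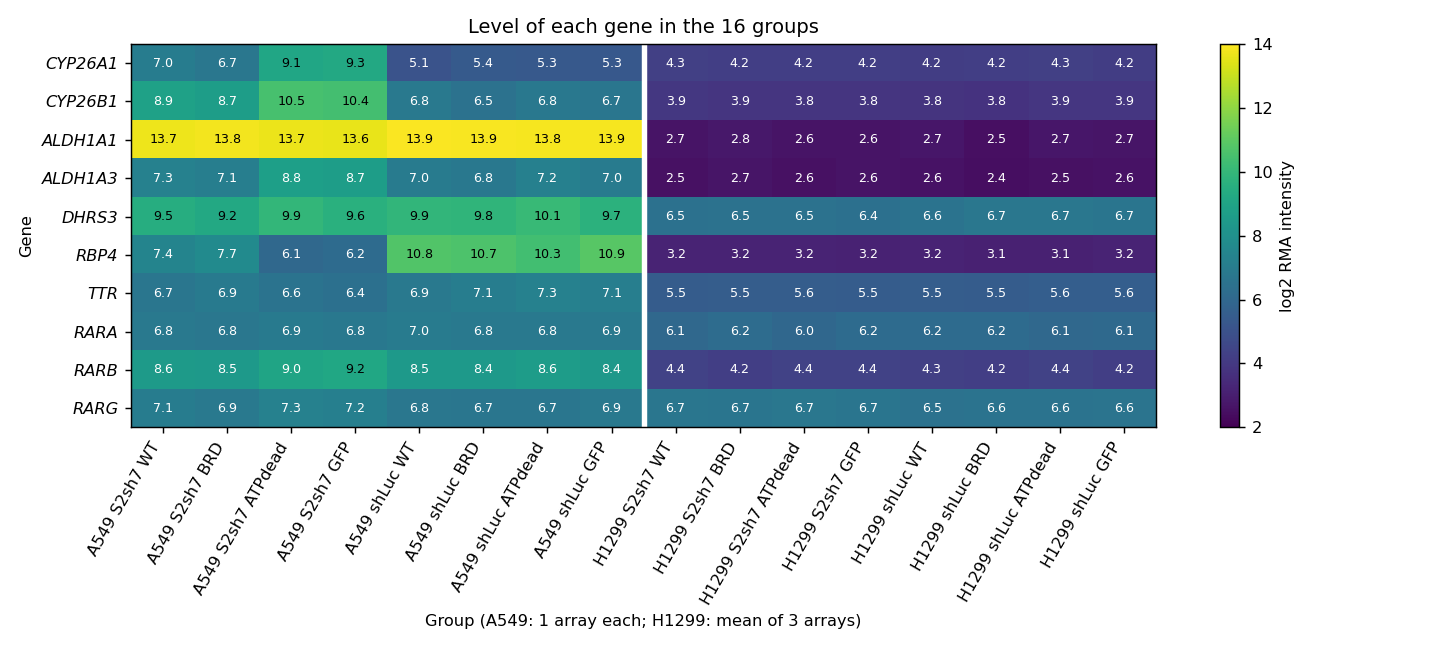
Level of each gene (rows) in the 16 groups (columns), as log2 RMA intensity, from 1 array per A549 group and the mean of 3 arrays per H1299 group. CYP26A1 and CYP26B1 are brightest with S2sh7 and ATPdead or GFP in A549, RBP4 is brightest in the 4 A549 shLuc columns, and 6 of the genes read under log2 5 in every H1299 column.

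In A549 the SMARCA2 shRNA came with far higher RNA of both retinoic acid clearing enzymes. CYP26A1 read log2 7.03, 6.75, 9.10 and 9.25 with S2sh7 and WT, BRD, ATPdead and GFP, against 5.09, 5.39, 5.33 and 5.31 with shLuc and the same cDNAs. Every S2sh7 array was above every shLuc array, and those with ATPdead or GFP were the highest. The shLuc readings lay near the median of all probe sets on the A549 arrays, log2 5.32 to 5.36, and whether they were above background was not tested. If they were not, the CYP26A1 folds below are lower bounds. CYP26B1, the second enzyme of the family, read log2 8.87, 8.70, 10.51 and 10.41 with S2sh7, against 6.83, 6.52, 6.81 and 6.71 with shLuc, in the same order of cDNAs. Again the groups did not overlap, and the ATPdead and GFP arrays with S2sh7 were highest.

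Since each A549 group had 1 array, arrays were grouped by whether the cells had an ATPase-competent SMARCA4 (WT and BRD) or not (ATPdead and GFP), which leaves 2 arrays per combination with shRNA and lets different cDNAs stand in for replicates. Without competent SMARCA4, CYP26A1 rose 14.5-fold (log2 difference 3.86, SE 0.121, limma adjusted p = 4.19e-07) and CYP26B1 rose 13.0-fold (3.70, SE 0.109, limma adjusted p = 3.71e-07). They ranked 7 and 11 from the top of all 14695 genes. With competent SMARCA4 the same comparison gave 3.13-fold for CYP26A1 (1.65, SE 0.121, limma adjusted p = 0.000232) and 4.32-fold for CYP26B1 (2.11, SE 0.109, limma adjusted p = 6.08e-05). A second, dim probe set of CYP26B1 read log2 5.41 to 5.70 over the 8 arrays and did not show the change (0.11 over the 4 cDNAs, limma adjusted p = 0.306). CYP26A1 had 1 probe set.

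RBP4, the plasma carrier of retinol, moved the other way and by more. It read log2 7.40, 7.73, 6.08 and 6.20 with S2sh7 and WT, BRD, ATPdead and GFP, against 10.76, 10.66, 10.35 and 10.87 with shLuc. The groups were far apart, and the ATPdead and GFP arrays with S2sh7 were the lowest. Whether these lowest readings were above background was not tested. If they were not, the fold without competent SMARCA4 is a lower bound. RBP4 fell 22.2-fold without competent SMARCA4 (log2 difference -4.47, SE 0.170, limma adjusted p = 1.03e-06) and 8.85-fold with it (-3.15, SE 0.170, limma adjusted p = 6.31e-05), which was the largest fall of all 14695 genes in the cells with competent SMARCA4. In these bulk samples fewer cells with the RNA and less RNA per cell cannot be told apart. A second RBP4 probe set was dim, at log2 4.80 to 5.33, and was not called in either set of cells.

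TTR, which binds RBP4 in plasma, changed far less. It read log2 6.69, 6.90, 6.56 and 6.44 with S2sh7 and WT, BRD, ATPdead and GFP, against 6.87, 7.09, 7.27 and 7.13 with shLuc. The groups overlapped by a single array, S2sh7 with BRD, which was above shLuc with WT. TTR fell 1.62-fold without competent SMARCA4 (-0.70, SE 0.104, limma adjusted p = 0.000827), and with it the difference was -0.18 (95% interval -0.43 to 0.06, limma adjusted p = 0.254).

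**Figure D2:**
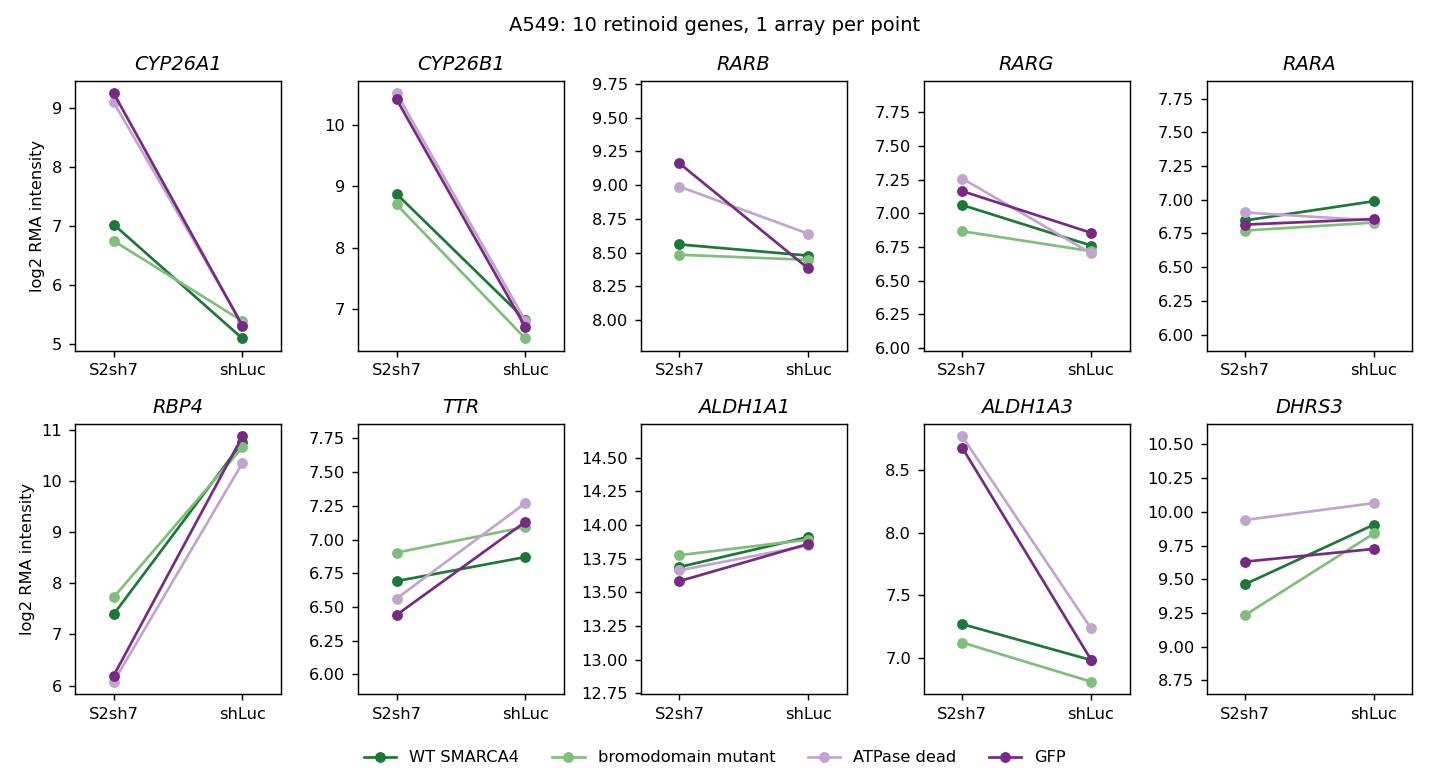
Log2 RMA intensity of each gene in A549 with S2sh7 (left) and shLuc (right), 1 array per point, lines joining arrays of the same cDNA; the vertical axes differ between panels. For CYP26A1, CYP26B1 and ALDH1A3 the ATPdead and GFP lines (purple) start highest on the S2sh7 side, for RBP4 they start lowest, and RARA is flat.

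Of the enzymes that set retinal and retinoic acid supply, ALDH1A3 rose and ALDH1A1 fell slightly. ALDH1A3 read log2 7.27, 7.12, 8.77 and 8.68 with S2sh7 and WT, BRD, ATPdead and GFP, against 6.98, 6.81, 7.24 and 6.99 with shLuc. The ATPdead and GFP arrays with S2sh7 were well above the other 6. With S2sh7, the BRD array lay within the range of the shLuc arrays and the WT array just above it. The rise without competent SMARCA4 was 3.06-fold (1.61, SE 0.103, limma adjusted p = 9.44e-06), and with it the difference was 0.30 (95% interval 0.06 to 0.54, limma adjusted p = 0.0759). ALDH1A1 read 13.69, 13.78, 13.66 and 13.58 with S2sh7, against 13.91, 13.89, 13.85 and 13.86 with shLuc. These groups did not overlap, but the difference without competent SMARCA4 was small (-0.23, SE 0.060, limma adjusted p = 0.0137). Without the GFP pair or the ATPdead pair it was not called (limma adjusted p = 0.166 and 0.060). With competent SMARCA4 it was -0.17 (95% interval -0.31 to -0.03, limma adjusted p = 0.0855).

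DHRS3, the retinal reductase, was called lower in the cells with competent SMARCA4. It read log2 9.46, 9.23, 9.94 and 9.63 with S2sh7 and WT, BRD, ATPdead and GFP, against 9.90, 9.84, 10.06 and 9.72 with shLuc. Each S2sh7 array was below the shLuc array of its cDNA, though the groups overlapped. DHRS3 fell with competent SMARCA4 (-0.52, SE 0.141, limma adjusted p = 0.0347), and without it the difference was -0.11 (95% interval -0.44 to 0.22, limma adjusted p = 0.56). The call with competent SMARCA4 was lost without the WT pair and without the BRD pair (limma adjusted p = 0.195 and 0.27). The difference between these effects was not called (-0.41, SE 0.199, limma adjusted p = 0.182).

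The 3 receptors moved by less than 1 log2 unit. RARB, whose own promoter carries the DR5 shown above, read log2 8.56, 8.48, 8.99 and 9.16 with S2sh7 and WT, BRD, ATPdead and GFP, against 8.48, 8.45, 8.64 and 8.38 with shLuc. The ATPdead and GFP arrays with S2sh7 were above the other 6, which overlapped. RARB rose 1.48-fold without competent SMARCA4 (0.56, SE 0.096, limma adjusted p = 0.00168) and the difference with it was 0.06 (95% interval -0.16 to 0.28, limma adjusted p = 0.706). RARG read 7.06, 6.87, 7.26 and 7.16 with S2sh7, against 6.76, 6.72, 6.70 and 6.86 with shLuc, and the groups did not overlap, though S2sh7 with BRD was only just above shLuc with GFP. It rose by 0.43 log2 without competent SMARCA4 (SE 0.085, limma adjusted p = 0.00353) and differed by 0.22 with it (limma adjusted p = 0.103). Without the ATPdead pair the rise was not called (limma adjusted p = 0.0917). RARA spanned 6.77 to 6.91 with S2sh7 and 6.83 to 6.99 with shLuc, with a difference of 0.01 without competent SMARCA4 (95% interval -0.16 to 0.18, limma adjusted p = 0.929) and of -0.10 with it (-0.27 to 0.07, limma adjusted p = 0.364). The other tested probe set of RARG also rose (0.63 over the 4 cDNAs, limma adjusted p = 0.0333). It rose by 0.86 without competent SMARCA4 and by 0.40 with it (limma adjusted p = 0.000298 and 0.0382). Whether RARG was called with competent SMARCA4 thus depended on the probe set. Of RARB's 4 tested probe sets 2 were bright, and the second of these also rose without competent SMARCA4 (0.60, limma adjusted p = 0.00254), while those near log2 5 were not called.

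In counts, 5 of the 10 genes rose without competent SMARCA4 (CYP26A1, CYP26B1, ALDH1A3, RARB and RARG), 3 fell (RBP4, TTR and ALDH1A1) and 2 were not called (RARA and DHRS3). Of all genes tested, 49.8% were called in that comparison, 27% higher and 22.9% lower, and the median absolute difference was 0.63 log2 over the 10 genes, against 0.22 over all genes. Because the 10 were chosen with results of these arrays known, the larger median is not evidence that they stand apart. With competent SMARCA4, 2 rose (CYP26A1 and CYP26B1) and 2 fell (RBP4 and DHRS3), against 21.3% of all genes called, 12.1% higher and 9.28% lower. In the fit over all 4 cDNAs, which assumes 1 knockdown effect and has 3 residual degrees of freedom, CYP26A1 (2.75, SE 0.489), CYP26B1 (2.91, SE 0.348) and RARG (0.33, SE 0.079) rose and RBP4 (-3.81, SE 0.305) fell, with 21.1% of all genes called, 12% higher and 9.06% lower. Leaving out 1 cDNA pair at a time, RARG was called in 0 of 4 fits (limma adjusted p = 0.055 to 0.144), CYP26A1 in 1 (0.0417 to 0.105), CYP26B1 in 2 (0.0416 to 0.0733) and RBP4 in 3 (0.0387 to 0.061). Without the ATPdead pair none of the 4 was called, without the GFP pair only RBP4 was, without the WT pair CYP26A1 and RARG were not, and without the BRD pair RARG was not.

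The knockdown effect differed between cells with and without an ATPase-competent SMARCA4 cDNA for 6 of the 10 genes. This is the test of the difference itself, the effect with competent SMARCA4 minus that without, and 23.9% of all genes passed it, 12% higher and 11.9% lower. CYP26A1 gave -2.21 (SE 0.172, limma adjusted p = 0.000181), CYP26B1 -1.59 (SE 0.155, limma adjusted p = 0.000427), ALDH1A3 -1.31 (SE 0.145, limma adjusted p = 0.00072) and RARB -0.50 (SE 0.136, limma adjusted p = 0.0319). RBP4 gave 1.33 (SE 0.240, limma adjusted p = 0.00621) and TTR 0.51 (SE 0.148, limma adjusted p = 0.0397). For each of the 6 the effect was smaller with competent SMARCA4. The share of the log2 effect left was 70.3% for RBP4, 57.0% for CYP26B1, 42.7% for CYP26A1, 26.3% for TTR, 18.6% for ALDH1A3 and 10.7% for RARB. The share for CYP26A1 rests on its dim shLuc readings. That for RBP4 rests on its readings with S2sh7 and ATPdead or GFP, log2 6.08 and 6.20. Whether these were above background was not tested, and if they were not, the RBP4 share is an upper bound. The SMARCA4 cDNA itself read lower with ATPdead than with WT or BRD under S2sh7 (log2 7.24 against 7.88 and 7.91). With WT and BRD it also read lower under shLuc (6.64 and 6.91) than under S2sh7. The part of these differences in the result was not tested. RARB's call was lost in 3 of the 4 fits that leave out a cDNA pair, TTR's in all 4 and RBP4's in 1, while those of CYP26A1, CYP26B1 and ALDH1A3 held in all 4.

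The same arrays also compare cells with and without competent SMARCA4 within each shRNA. Under S2sh7, with competent SMARCA4 against without, CYP26A1 gave -2.29 log2, CYP26B1 -1.67 and ALDH1A3 -1.53 (limma adjusted p = 1.09e-05, 2.51e-05 and 2.74e-05). RARB gave -0.55, DHRS3 -0.44 and RBP4 1.43 (limma adjusted p = 0.00275, 0.0412 and 0.000411), so that 5 of the 10 genes were lower and 1 higher, with 38.7% of all genes called, 17.8% higher and 20.9% lower. The DHRS3 call held in 1 of the 4 fits that leave out a cDNA pair (-0.59 to -0.28, limma adjusted p = 0.0136 to 0.271). Not called were TTR at 0.30, RARG at -0.25, ALDH1A1 at 0.11 and RARA at -0.05 (limma adjusted p = 0.0566, 0.0522, 0.198 and 0.623). Under shLuc, 0 of the 10 genes and 0 of 14695 genes were called by limma, although 746 genes (5.08%) had an unadjusted p under 0.05. The 10 differences under shLuc ran from -0.22 for TTR to 0.10 for RBP4, and the 95% interval for CYP26A1 was -0.36 to 0.20. With WT and BRD the SMARCA4 cDNA read lower under shLuc (log2 6.64 and 6.91) than under S2sh7 (7.88 and 7.91). The part of that in these counts was not tested.

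**Figure D3:**
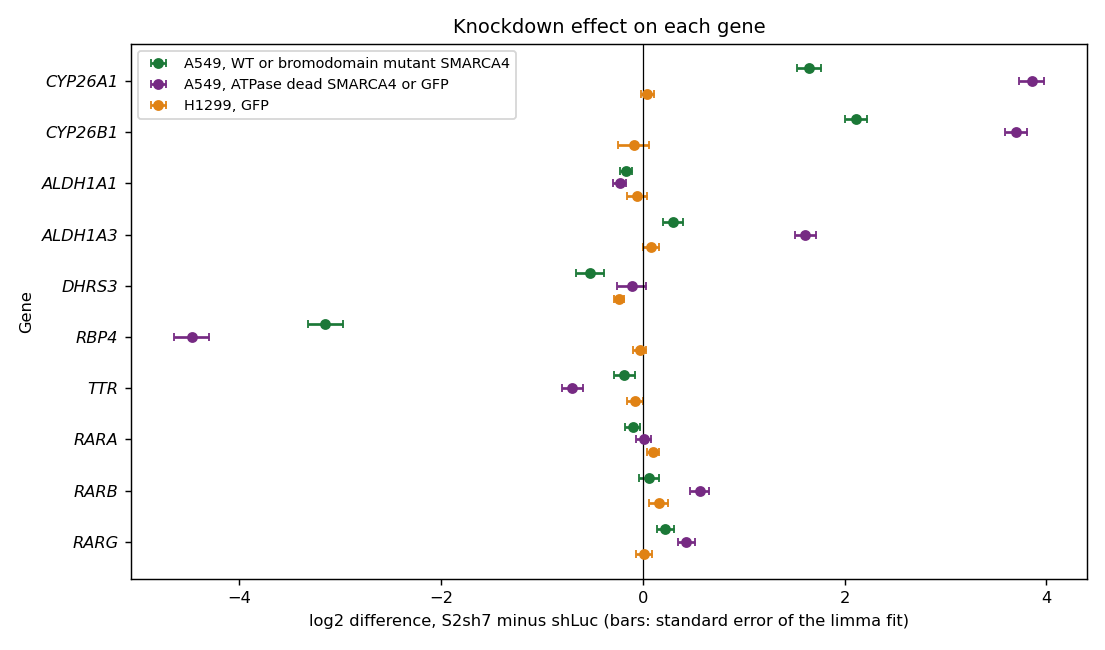
Log2 difference between S2sh7 and shLuc for each gene, with the standard error of the limma fit, in A549 with WT or BRD SMARCA4 (green), in A549 with ATPdead or GFP (purple) and in H1299 with GFP (orange). Purple lies farther from 0 than green for CYP26A1, CYP26B1, ALDH1A3, RBP4, TTR and RARB, and orange lies near 0 for all 10 genes.

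H1299 had 3 arrays per group, and with GFP the knockdown lowered DHRS3, the 1 call among the 10 genes. Of the 10, only TTR, RARA, RARG and DHRS3 were measurable in H1299, so counts over the 10 say little about the others. DHRS3 read log2 6.46, 6.47 and 6.41 with S2sh7 and GFP, against 6.71, 6.60 and 6.75 with shLuc and GFP. The groups did not overlap. The fall was 1.18-fold (-0.24, SE 0.049, limma adjusted p = 0.000978), in a comparison in which 29.7% of all genes were called. With BRD, DHRS3 averaged 6.53 ± 0.06 with S2sh7 and 6.74 ± 0.06 with shLuc (SD, n = 3 each; -0.22, limma adjusted p = 0.00303), with 23.7% of all genes called. With ATPdead it averaged 6.52 ± 0.06 with S2sh7 and 6.74 ± 0.10 with shLuc (SD, n = 3 each; -0.22, limma adjusted p = 0.00224), with 28.4% called.

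With WT SMARCA2, DHRS3 averaged 6.47 ± 0.02 with S2sh7 and 6.58 ± 0.05 with shLuc (SD, n = 3 each). The difference of -0.10 was not called (95% interval -0.20 to 0.00, limma adjusted p = 0.148). With WT, 0 of the 10 genes was called and 26.5% of all genes were. Most of the 10 were not measurable in H1299, so these shares cannot be compared. The effect with WT was not shown to differ from that with GFP (0.14, SE 0.069, limma adjusted p = 0.369). Ordered by mean, the 4 S2sh7 groups lay at 6.45 to 6.53 and the 4 shLuc groups at 6.58 to 6.74, and shLuc with WT, the lowest shLuc group, lay within 1 SD of S2sh7 with BRD. In both lines DHRS3 read lower with S2sh7 than with shLuc for every cDNA.

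Among the other 9 genes in H1299, the largest difference in any comparison was 0.35 log2, for ALDH1A1 in the effect with BRD minus that with GFP (limma adjusted p = 0.37). The sole further call was ALDH1A1 with BRD (0.29, SE 0.096, limma adjusted p = 0.0329), at log2 2.77 with S2sh7 and 2.47 with shLuc, both far under the limit for a measurable level. The summed intensity of the epithelial markers was also lower in H1299, at 6412 to 7626 on the S2sh7 arrays, against 9334 to 10031 on the shLuc arrays, and its part in the DHRS3 result was not tested. That sum was mostly KRT18, at log2 12.38 to 12.61 with S2sh7 and 12.88 to 12.97 with shLuc. EPCAM, KRT19 and CDH1 read under log2 5 on all H1299 arrays. TTR, RARA and RARG were measurable, and with GFP their differences were -0.08 (95% interval -0.24 to 0.09), 0.10 (-0.03 to 0.23) and 0.02 (-0.15 to 0.18) (limma adjusted p = 0.507, 0.227 and 0.907). For RARA the direction depended on the probe set. Its other tested probe sets, averaging log2 5.27, 4.86 and 4.66 in H1299, gave -0.20, -0.26 and -0.44 with GFP. Of these the last was called (limma adjusted p = 0.00175). A change of the size seen for TTR in A549 without competent SMARCA4 lies outside the TTR interval, but this does not exclude such a fall. TTR read log2 5.39 to 5.73 in H1299, and the endothelial gene PECAM1 read 5.28 to 5.61 there. Whether TTR was above background was not tested, and if it was not, a fall could not be seen. CYP26A1, CYP26B1, RBP4 and RARB read under log2 5 throughout, so a change there was not detectable unless it raised them. No gene of the 10 was called in any difference of effects between a SMARCA2 cDNA and GFP, where 2.28%, 0.558% and 0.0612% of all genes were called for WT, BRD and ATPdead, nor between cDNAs under S2sh7 (3.02% for ATPdead and 0.0612% for BRD, each against WT) or against GFP under shLuc (2.74%, 1.37% and 0.122%).

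The wider retinoid pathway in A549 was described with 4 gene lists, none of which includes the 10 genes, though some genes, such as STRA6 and CRABP2, stand in more than 1 list. Their counts are to be read against the 27% of all genes that rose and the 22.9% that fell without competent SMARCA4 (49.8% called). Of the genes for retinoid transport, uptake and storage, 2 of 9 tested rose and 2 fell without competent SMARCA4 (median 0.05 log2, against 0.00 over all genes). The called share of this list was below that of all genes. RBP7, a cellular retinol binding protein, rose to log2 6.63 with S2sh7, against 4.16 with shLuc, under the limit for a measurable level, and FABP5, a fatty acid binding protein that can also carry retinoic acid, rose by 0.66 (SE 0.071). SCARB1, a lipoprotein receptor that takes up carotenoids, gave -0.14 (limma adjusted p = 0.129). STRA6, the membrane receptor for RBP4, fell to log2 6.30 with S2sh7, against 7.75 with shLuc, and BCO1, which cleaves carotene to retinal, fell to 4.23 with S2sh7, under that limit, against 6.11 with shLuc (limma adjusted p = 9.60e-05 and 1.58e-05). With competent SMARCA4, BCO1 was higher with S2sh7 instead, at 6.77 against 6.00 with shLuc (limma adjusted p = 0.00673).

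Among the genes for oxidation and reduction of retinol and retinal, 1 of 14 tested rose and 8 fell without competent SMARCA4 (median -0.40). The gene that rose was RDH10, the retinol dehydrogenase best known for making retinal in embryos (1.71, SE 0.140, limma adjusted p = 3.32e-05). Those that fell included the aldo-keto reductases AKR1B10 and AKR1C3, which can reduce retinal (-2.08 each), and the retinal reductase RDH11 (-1.41). The alcohol dehydrogenase ADH6 fell to log2 4.84 with S2sh7, under the limit, against 7.10 to 7.86 over the 4 shLuc arrays. AKR1B10 remained bright, at a mean of log2 12.07 with S2sh7 and 14.14 with shLuc. With competent SMARCA4, RDH10 rose (0.51, limma adjusted p = 0.0362), RDH11 fell (-0.63, limma adjusted p = 0.00303) and 12 of 14 were not called.

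Of the receptor partners and coregulators, 3 of 12 tested rose and 4 fell without competent SMARCA4 (median 0.11). RXRA, the DNA binding partner of the retinoic acid receptors, fell 1.85-fold (-0.89, SE 0.065, limma adjusted p = 1.94e-05), and MED1, a Mediator subunit that nuclear receptors contact, rose by 0.68 (SE 0.064, limma adjusted p = 7.01e-05). NRIP1, a repressive cofactor, gave 0.20 (limma adjusted p = 0.0702), the acetyltransferase CREBBP 0.17 (limma adjusted p = 0.0566) and the deacetylase HDAC3 0.07 (limma adjusted p = 0.388).

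Of textbook retinoic acid induced genes outside the 10, 0 of 13 tested rose and 7 fell without competent SMARCA4 (median -0.35). The called share in either direction was near that of all genes. The split by direction was not, since 27% of all genes rose and 22.9% fell, and it was not tested. RARRES1, named for its induction by a retinoid, read log2 6.79, 7.14, 5.64 and 5.94 with S2sh7 and WT, BRD, ATPdead and GFP, against 9.00, 9.00, 8.93 and 9.18 with shLuc. Every S2sh7 array was below every shLuc array, as for RBP4. CD38, which retinoic acid induces in myeloid cells, fell both without and with competent SMARCA4 (-1.38 and -1.43, limma adjusted p = 4.15e-06 and 6.08e-05). TGM2, a transglutaminase, fell in both sets of cells (-0.70 and -1.11), and HOXB5 fell without competent SMARCA4 (-0.35, limma adjusted p = 0.00393). In H1299 with GFP, TGM2 (-0.67), RDH11 (-0.41) and CRABP2, a retinoic acid carrier (-0.24), also fell (limma adjusted p = 1.86e-05, 2.45e-09 and 0.00381). There CREBBP (-0.21) and SCARB1 (-0.12) fell and HDAC3 rose (0.10) as well (limma adjusted p = 0.00253, 0.0205 and 0.0203).

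**Figure D4:**
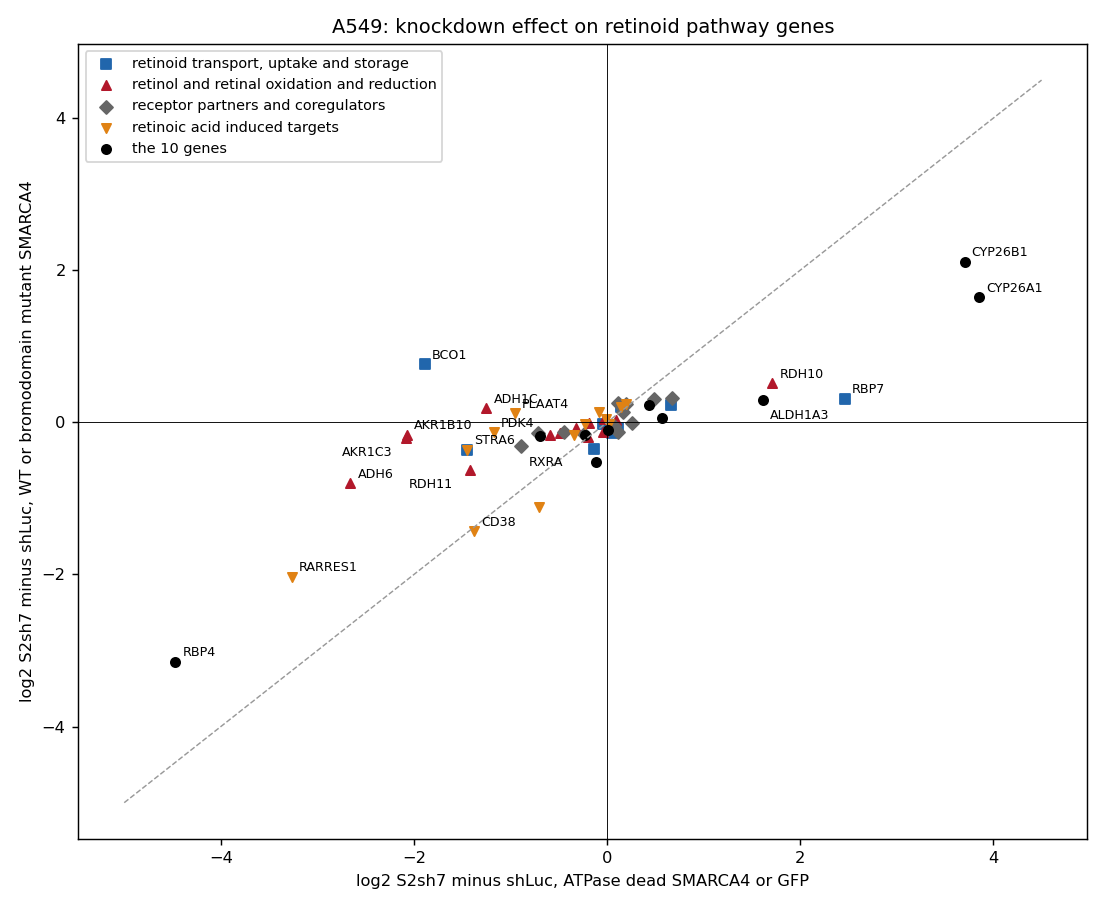
Log2 difference between S2sh7 and shLuc in A549 with ATPdead SMARCA4 or GFP (horizontal) and with WT or BRD SMARCA4 (vertical), for the 10 genes (black) and the tested genes of 4 retinoid lists; the dashed line marks equal effects. CYP26A1, CYP26B1, RDH10 and RBP7 lie to the right and RBP4 and RARRES1 at the lower left, and most genes that changed lie closer to 0 on the vertical axis than on the horizontal.

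RBP4 and TTR were also set beside other plasma proteins of the liver type and their regulators, since A549 expresses several. Of 11 tested, 1 rose and 9 fell without competent SMARCA4 (median -1.27), where 27% of all genes rose and 22.9% fell. APOH fell by 4.53 (SE 0.254) and fibrinogen FGB by 4.15 (SE 0.378), whereas the transcription factor FOXA1 rose by 0.78 (SE 0.104). Another factor of that family, FOXA2, fell to log2 4.89 with S2sh7, under the limit for a measurable level, against 8.01 with shLuc. Fibrinogen FGG fell by 1.27 (SE 0.429), the factor CEBPA by 0.82 (SE 0.073) and the plasma protein AHSG by 0.53 (SE 0.115). With competent SMARCA4, FOXA2 differed by -0.05 (limma adjusted p = 0.586) and APOH fell by 0.87 (limma adjusted p = 0.0454). Of the fall of RBP4, 70.3% was left. In the fit over all 4 cDNAs, FGG (-0.93), CEBPA (-0.57) and AHSG (-0.45) were also called lower and FOXA1 (0.60) higher. FOXA2 and APOH alone thus do not set RBP4 apart from this list. ALB and APOA1, defining genes of hepatocytes, were under log2 5 on all 8 arrays. SERPINA1 fell in H1299 as well, by 1.12 with GFP (SE 0.088, limma adjusted p = 6.65e-09), and FOXA3 was called there at readings under log2 5 on average (4.24 with S2sh7 and 4.00 with shLuc, limma adjusted p = 0.0448).

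Cell markers moved with these genes in A549. The summed intensity of 6 epithelial markers was 19503 to 20147 on the S2sh7 arrays, against 28061 to 31963 on the shLuc arrays, and 5 of the 6 fell without competent SMARCA4, CDH1 by 1.77 and KRT8 by 1.54. Of all genes, 49.8% were called in that comparison, 27% higher and 22.9% lower, and the marker counts are to be read against these shares. The mesenchymal marker VIM rose by 0.47 and CDH2 fell by 1.47. Of 2 tested leukocyte markers CD14 fell, of 3 fibroblast markers COL3A1 rose (log2 7.42 with S2sh7, against 4.35 with shLuc, under the limit), and 0 of 4 alveolar type II and 0 of 2 endothelial markers were called, while the leukocyte gene PTPRC and the endothelial gene CDH5 were under log2 5 on all arrays. The part of these shifts in the retinoid results was not tested.

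Over the 8 A549 arrays, the 5 genes most like RBP4 among 1693 genes spanning at least 1 log2 unit were TCEA2 (Pearson r 0.998), RARRES1 (0.997), WDR72 (0.995), WIPF1 (0.995) and NFKBIZ (0.994). Against RBP4, CYP26B1 had an r of -0.989 and CYP26A1 of -0.960. Over the 8 H1299 group means, the 5 most like DHRS3 among 129 such genes were IFIT1 (0.966), SAMD9 (0.962), IFIT3 (0.953), IFIT2 (0.939) and ISG15 (0.936), all known to be induced by interferon. IFIT1 fell by 1.33 log2 in H1299 with S2sh7 and GFP. These likenesses are descriptions over 8 points that share the 2 shRNA levels, and have no test.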

How the data were processed

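RNA of the A549 and H1299 lines was hybridised to Affymetrix HG-U133 Plus 2.0 arrays, 32 in all. The authors deposited intensity values, linear in scale, made with RMA per the submitters' processing notes, which also name limma; versions are not given in the sources used here. The planned log2 scale was reached by taking log2 with no pseudocount. The annotation gave a single symbol to 41097 of 54675 probe sets, while the 1801 with several symbols and the 11777 without one were not named. Each of 19775 genes was read by its brightest probe set, and the 14695 genes over log2 5 on at least 3 arrays were tested.

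The fits used limma 3.58.1 in R 4.3.3, with lmFit, eBayes and Benjamini-Hochberg adjustment over all tested genes, called at adjusted p under 0.05. H1299 was fitted with 8 group means (24 arrays) and A549 with additive shRNA and cDNA terms or with 4 means (8 arrays). The fits were tested on simulated data. The alternatives covered the probe set rule, the filter, the scaling, the eBayes options, the replicate block and leaving out arrays or cDNA pairs. Median residual SD was 0.0703 log2 in H1299, 0.108 in the additive A549 fit and 0.0766 in the other.

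The members and gene lists were chosen with earlier results of these data known. In every comparison the 10 genes are named or covered by a range or a count. From the lists, up to 6 genes called in H1299 with GFP or in A549 over the 4 cDNAs were named by smallest adjusted p. The other names, STRA6, BCO1, RBP7, AKR1B10, AKR1C3, APOH, FGB, FOXA2 and the markers among them, were chosen after their values were seen. Likeness was Pearson r over 8 group means, among genes spanning at least 1 log2. Sequences are RefSeq's, GRCh38.p14.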

Additional observations from a re-analysis of the deposited data

Results flagged for a closer look

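In A549 the effect of the SMARCA2 shRNA differed between cells with and without ATPase-competent SMARCA4 by a limma test of the difference itself (with minus without, log2, adjusted p under 0.05). Among the retinoid genes it was -2.21 for CYP26A1, -1.59 for CYP26B1, -1.31 for ALDH1A3, -0.50 for RARB, 0.51 for TTR and 1.33 for RBP4. Among carriers and enzymes of the wider pathway it was -2.15 for RBP7, -1.20 for RDH10, -0.44 for FABP5, 0.78 for RDH11, 1.09 for STRA6, 1.86 for ADH6, 1.88 for AKR1C3, 1.92 for AKR1B10 and 2.65 for BCO1. For BCO1 the 2 effects also had opposite signs, 0.76 with competent SMARCA4 and -1.89 without. Among receptor partners and induced genes it was -0.36 for MED1, 0.58 for RXRA and 1.24 for RARRES1. Among liver-type genes it was 0.50 for CEBPA, 1.13 for FOXA3, 1.73 for SERPINA1, 3.06 for FOXA2 and 3.65 for APOH. Different cDNAs stood in for replicates in all of these. For RBP7, BCO1, ADH6, FOXA2, FOXA3 and SERPINA1 some readings lay under log2 5, so those sizes are not settled, and CYP26A1 was dim with shLuc.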

How the results depend on the processing

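In A549, leaving out 1 cDNA pair at a time gave 0 to 3 of the 10 genes called over the 4 cDNAs (8 to 1676 of all genes), 6 to 8 without competent SMARCA4 (5232 to 6724), 3 to 4 with it (484 to 2733), 3 to 5 for the difference (1418 to 2277), 5 to 6 for SMARCA4 under S2sh7 (3455 to 4488) and 0 under shLuc (0 of all genes). Under shLuc the main count of 0 genes became 1 with the mean of all probe sets, with arrays centred on their medians and with trend and robust eBayes. The RBP4 difference was 0.44 and not called (limma adjusted p = 0.142) with the mean of all probe sets. In H1299, the mean of all probe sets gave 3 members called with GFP and 3 with ATPdead (1 each in the main analysis), and RARA with GFP turned to -0.12 (limma adjusted p = 0.0359), against 0.10. Quantile normalization gave 1 member with BRD, against 2. Leaving out 1 H1299 array gave 1 to 1 members with GFP (3496 to 4093 of all genes), 0 with WT (3185 to 3526), 1 to 3 with BRD (2776 to 3180) and 1 to 2 with ATPdead (3433 to 3750). The cause was not tested.

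Counts over all genes moved more where few were called. For WT minus GFP (335) they were 214 with no filter, 184 centred, 532 with trend and robust, and 147 to 307 with an array left out. For BRD minus GFP (82) they were 54 with the mean of probe sets, 180 with trend and 52 to 73 with an array left out. For ATPdead minus GFP (9) they were 3 with the mean of probe sets, 5 with no filter, 4 centred, 50 with trend, 5 with the replicate block and 4 to 12 with an array left out. Under S2sh7, ATPdead against WT (444) gave 702 with trend and 240 to 377 with an array left out, and BRD against WT (9) gave 24 with a filter of log2 over 6, 26 with quantile, 89 with trend and 1 to 8. Under shLuc against GFP, WT (403) gave 249 with no filter, 254 centred, 616 with trend and 134 to 314; BRD (201) gave 415 with trend and 61 to 126; ATPdead (18) gave 5 with no filter, 47 with the stricter filter, 41 with quantile, 5 centred, 196 with trend and 0 to 10. The share of higher calls moved from 80% to 61.9% (quantile) and 64.7% (centred) for WT minus GFP, 77.8% to 50% (quantile) for ATPdead minus GFP, 0% to 30.8% for BRD against WT, 33.7% to 50.3% and 49.6% for WT under shLuc, and 27.8% to 46.3% for ATPdead under shLuc. Arrays with the same replicate number did not deviate together (mean r -0.00513, range -0.285 to 0.281), 9 of 24 arrays lay closest to their own number, and the replicate block changed none of the 120 calls for the 10 genes in H1299.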

Other observations

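The direct repeat printed for CYP26A1 and RARB was found in a promoter window of 29 genes, of which 8 were tested. In A549 without competent SMARCA4, 4 of these rose with S2sh7 by limma and 0 fell, against 27% of all genes that rose, 22.9% that fell and 49.8% called, so the called share was that of all genes. The 4, which include 2 of the 10 retinoid genes, were CYP26A1 (3.86 log2), CFLAR, an inhibitor of caspase 8 activation (0.79, adjusted p = 2.02e-05), RARB (0.56) and PANK2, a pantothenate kinase (0.27, adjusted p = 0.00451). CYP26A1 and RBP4, which moved in opposite directions, both lie on chromosome 10 with 3 protein-coding genes between them. Of these, MYOF rose by 1.31 (adjusted p = 9.34e-06) and CEP55 by 0.38 (adjusted p = 0.00491) in the same comparison, and FFAR4 was not tested.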
